A study of Mus musculus with 12 samples.

Results

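The mitochondrial ribosomal proteins are the nuclear-encoded proteins of the ribosome that works inside mitochondria. Their genes were taken as all protein-coding genes in the deposited count tables whose symbol begins with Mrpl (large subunit) or Mrps (small subunit) followed by a number and at most 1 letter. This gave 77 genes among 37583 gene identifiers, of which 48 are named for the large and 29 for the small subunit. The level of each was set in 6 Taz knockout clones against 6 wildtype clones of mouse granulocyte-monocyte progenitors (GMPs). Both genotypes are C57BL/6, come from fetal liver at embryonic day 15.5, and carry a retroviral ER-Hoxb8 fusion, in which the transcription factor Hoxb8 is held active by estradiol and keeps progenitors dividing. All clones were grown with stem cell factor at about 50 ng/ml and 0.5 µM estradiol, and each was derived from a single cell. Taz encodes Tafazzin, the transacylase that remodels cardiolipin, the signature phospholipid of the inner mitochondrial membrane. The knockout clones are named 3G, 3H, 3I, 4J, 4K and 4L, and the wildtype clones 1A, 1B, 1C, 2D, 2E and 2F. What the number before the letter stands for is not given. Were it an embryo or a founder line, the 3 clones of a number would be related, and p-values that take 12 independent clones would be too low.

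Mitochondrial ribosomes translate the few messages of the mitochondrial genome, which encode core subunits of the respiratory chain and the ATP synthase. Their ribosomal RNAs are encoded in mitochondria, but every protein is encoded in the nucleus, made in the cytosol and imported, so the genes are usually regarded as a set that must be supplied in proportion. Many members descend from bacterial ribosomal proteins, others are specific to mitochondria. The translation products are inserted into the inner membrane, where cardiolipin resides.

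Taz itself stood at 3.35 CPM ± 0.683 in knockout clones and at 39.1 CPM ± 2.58 in wildtype clones (SD, n = 6 each; CPM is the usual count scaled to library size, here with TMM factors). Its log2 fold change was -3.54 (SE 0.132, adjusted p = 5.68e-08 in edgeR's quasi-likelihood fit), and the genotypes did not overlap. Counts in genes ran from 18970252 to 23658158 in knockout clones and from 21966954 to 27431544 in wildtype clones. Summed over 11 genes, markers of granulocyte-monocyte progenitors reached between 11670 and 19490 CPM in knockout clones and between 12590 and 21800 CPM in wildtype clones, and all 11 passed the filter on low counts. The markers of mature neutrophils, 10 genes, summed to between 15.9 and 147 CPM in knockout clones and to between 22.02 and 1536 CPM in wildtype clones, the highest in 2D. Clone 2D stood apart by neutrophil markers and the lymphoid marker Igll1, and clone 3G by fetal hepatocyte and stromal markers. Several counts and medians that these clones move are also given without them.

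Most mitochondrial ribosomal protein genes did not pass the test between Taz knockout and wildtype clones, and the few that passed were all lower in knockout clones. A filter on low counts left 76 members for the test, 47 of the large and 29 of the small subunit. Genes with an adjusted p under 0.05, adjusted over all 11819 genes tested, were called. Of the 76 members 0 were higher and 5 lower in knockout clones by edgeR, against 3.99% of all genes called higher and 3.94% called lower. At an unadjusted p under 0.05 there were 12 lower and 0 higher members, and this held for 23.7% of all genes in either direction. DESeq2 called 0 higher and 6 lower (13.7% of all genes), and limma voom 0 and 5 (7.83%). The share of members called was 5 of 76, near the 7.94% of all genes called in either direction.

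The log2 fold changes were small, from -0.26 to 0.41. They lay below 0 in 58 of 76 members (76.3%), against 51.7% of all genes tested, and their median was -0.07, against -0.01 for all genes. In the large subunit 4 of 47 members fell and 37 lay below 0 (median -0.08). In the small subunit 1 of 29 fell and 21 lay below 0 (median -0.06). Members are not independent of each other, and the clones they are measured in are shared, so these shares describe the list and were not tested.

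**Figure D1:**
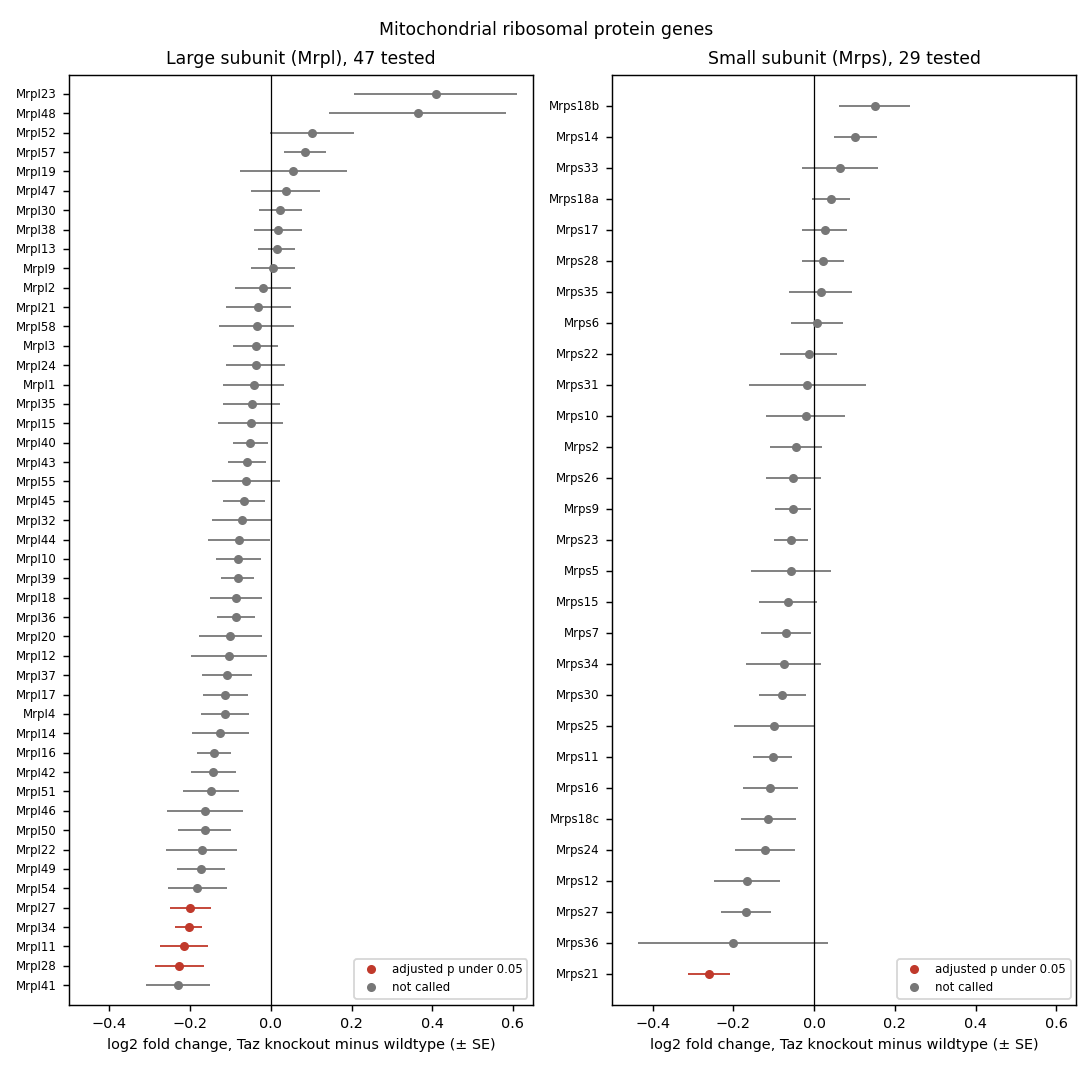
Log2 fold change (Taz knockout minus wildtype, edgeR) of each tested mitochondrial ribosomal protein gene, with its standard error as a bar; the large subunit is on the left and the small on the right, and red points passed the test. The 5 red points all lie left of 0, and the widest bars belong to Mrps36, Mrpl48 and Mrpl23.

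Among the 5 that fell, Mrps21 belongs to the small subunit and Mrpl34, Mrpl27, Mrpl11 and Mrpl28 to the large one. Each is the counterpart of a bacterial ribosomal protein of the same number. Mrps21 (ENSMUSG00000054312, chromosome 3) had 21.5, 23.4, 21.5, 23.8, 25.2 and 22.9 CPM in knockout clones 3G to 4L, against 28.0, 26.8, 26.7, 29.8, 26.4 and 27.9 CPM in wildtype clones 1A to 2F. Every knockout clone was below every wildtype clone. The means were 23.0 CPM ± 1.44 and 27.6 CPM ± 1.249 in knockout and wildtype clones, a 0.835-fold level (log2 fold change -0.26, SE 0.0518, adjusted p = 0.0121). This was the lowest log2 fold change of any member.

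Mrpl34 (ENSMUSG00000034880, chromosome 8) had the smallest spread between clones of a genotype among all tested members, 0.0493 on the log2 scale. Its level was 52.4, 53.6, 55.9, 57.2, 53.0 and 56.7 CPM in knockout clones 3G to 4L, against 61.9, 62.9, 60.6, 66.4, 63.3 and 63.8 CPM in wildtype clones 1A to 2F. The genotypes did not overlap, and the means were 54.8 CPM ± 2.05 in knockout and 63.1 CPM ± 1.96 in wildtype clones (log2 fold change -0.20, SE 0.0342, adjusted p = 0.00509). Mrps21 and Mrpl34 kept their call in all 12 fits without a single clone, with adjusted p of at most 0.032 and 0.0147. With counts summed by title number both calls were lost (adjusted p = 0.125 and 0.0956 by edgeR), as were those of the other 3 members that fell.

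Mrpl27 (ENSMUSG00000024414, chromosome 11) encodes the counterpart of a bacterial protein whose tail reaches the peptidyl transferase centre. It ran from 17.3 to 19.95 CPM in knockout clones (median 18.9), against 20.8 to 23.3 CPM in wildtype clones (median 21.45). Again no knockout clone reached the lowest wildtype clone, and the means were 18.9 CPM ± 0.971 and 21.7 CPM ± 0.956 (log2 fold change -0.20, SE 0.0502, adjusted p = 0.0334). A stretch of 75 exon bases (7.61% of the gene's) is shared with Eme1 on the other strand, and reads were counted without strand. The call was lost without 2F, 3G, 4J, 4K or 4L (largest adjusted p 0.0681).

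Mrpl11 (ENSMUSG00000024902, chromosome 19) encodes the protein at the base of the stalk that engages elongation factors. It had 45.6, 47.2, 49.3, 46.9, 42.7 and 50.7 CPM in knockout clones 3G to 4L, against 56.7, 52.0, 51.4, 62.7, 53.3 and 51.7 CPM in wildtype clones 1A to 2F. The genotypes came close, at 50.7 CPM in 4L and 51.4 CPM in 1C, but did not overlap. The log2 fold change was -0.22 (SE 0.0587, adjusted p = 0.0445), and without any clone but 4L, in 11 of 12 fits, the call was lost (largest adjusted p 0.0947).

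Mrpl28 (ENSMUSG00000024181, chromosome 17) had 62.6, 64.3, 60.6, 70.8, 61.3 and 67.0 CPM in knockout clones 3G to 4L, against 80.4, 70.1, 69.9, 87.0, 71.9 and 73.3 CPM in wildtype clones 1A to 2F. Here the knockout clone 4J lay above the 2 lowest wildtype clones, 1C and 1B. The log2 fold change was -0.23 (SE 0.0613, adjusted p = 0.0428), and the call was lost in 9 of the 12 fits, those without 1A, 1B, 2D, 2F, 3G, 3H, 3I, 4K or 4L (largest adjusted p 0.094). Over all members, 4 had knockout clones that lay wholly below the wildtype clones and 0 wholly above, against 2.84% and 2.54% of all genes tested.

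**Figure D2:**
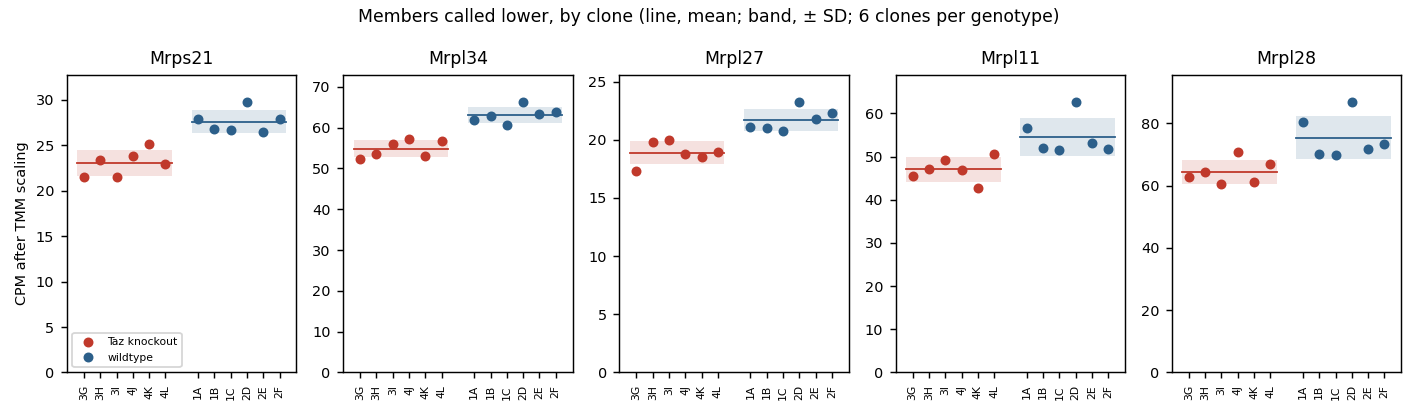
Level in CPM after TMM scaling of the 5 mitochondrial ribosomal protein genes that passed the test, for each Taz knockout clone (red, left) and each wildtype clone (blue, right); the line is the mean and the band its SD over 6 clones. Mrps21, Mrpl34, Mrpl27 and Mrpl11 show no overlap of the genotypes, and clone 2D is the highest in all 5 panels.

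Members near the threshold were all lower. Mrpl16, the counterpart of a bacterial protein of the large subunit, stood at 58.6 CPM ± 1.70 in knockout and 64.6 CPM ± 4.00 in wildtype clones (log2 fold change -0.14, SE 0.0428, adjusted p = 0.0671), and DESeq2 called it. Mrpl41, which is specific to mitochondria, stood at 32.3 CPM ± 2.06 and 37.9 CPM ± 4.53 (-0.23, SE 0.0788, adjusted p = 0.0969). Mrps27, a pentatricopeptide repeat protein of the small subunit, stood at 42.6 CPM ± 3.63 and 47.9 CPM ± 3.05 (-0.17, SE 0.0623, adjusted p = 0.122). These 3 and Mrpl49, Mrpl50, Mrpl42 and Mrpl54 are the 7 members that passed under at least 1 other setting and not in the test above. Mrpl50 passed only without clone 2E (adjusted p = 0.0415), a fit that called 8.66% of all genes. Mrpl49, Mrps27, Mrpl42 and Mrpl54 passed only in limma voom with the title number as a block (adjusted p = 0.0243, 0.0262, 0.0442 and 0.0454). That blocked fit called 11 members, the most of any setting, and also more of all genes than the test above. The correlation estimated for its block was -0.169.

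No member was called higher, and the 2 largest positive values had wide errors. Mrpl23, whose bacterial counterpart lines the exit of the peptide tunnel, was barely counted, with 11 to 20 counts per knockout clone and 10 to 17 per wildtype clone (log2 fold change 0.41, SE 0.202, adjusted p = 0.246). Mrpl48 followed at 0.36 (SE 0.219, adjusted p = 0.349), then Mrpl52 at 0.10 (adjusted p = 0.601) and Mrpl57 at 0.08, with 58.5 CPM ± 4.32 in knockout and 55.2 CPM ± 2.54 in wildtype clones (adjusted p = 0.357). In the small subunit the highest were Mrps18b at 0.15 (29.4 CPM ± 2.67 and 26.5 CPM ± 3.24 in knockout and wildtype clones, adjusted p = 0.332) and Mrps14 at 0.10 (78.0 CPM ± 5.33 and 72.6 CPM ± 4.47, adjusted p = 0.272). Next were Mrps33 at 0.06 (adjusted p = 0.735) and Mrps18a at 0.04 (adjusted p = 0.651). For Mrps18b 30.5% of the exon bases are shared with the antisense gene Gm16279, so its reads and those of Gm16279 cannot be told apart there.

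Several members have roles or places that their symbol does not tell. Mrps30 and Mrps18a sit in the large subunit in mammalian structures despite their names. Mrps30 stood at 70.8 CPM ± 3.75 in knockout and 74.8 CPM ± 6.404 in wildtype clones (log2 fold change -0.08, adjusted p = 0.45). With both counted as large and Mrps36 left out, the medians were -0.08 over 49 large and -0.05 over 26 small subunit members, and the numbers that fell stayed at 4 and 1. Mrps36 is now known as a subunit of the 2-oxoglutarate dehydrogenase complex. It was low and variable, at 1.69 CPM ± 0.445 and 1.94 CPM ± 0.538 in knockout and wildtype clones (-0.20, SE 0.236, adjusted p = 0.656). Of the S18 relatives, Mrps18c stood at 42.0 CPM ± 3.46 and 45.4 CPM ± 3.75 (-0.11, adjusted p = 0.349). Mrpl12, which also binds the mitochondrial RNA polymerase, stood at 79.8 CPM ± 5.46 and 85.7 CPM ± 14.2 (-0.10, adjusted p = 0.549). Mrpl58, a peptidyl-tRNA hydrolase that rescues stalled ribosomes, stood at 33.04 CPM ± 4.08 and 33.9 CPM ± 3.68 (-0.03, adjusted p = 0.862).

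Members were also set apart by descent. Of 46 tested members with a bacterial counterpart 5 were lower (median log2 fold change -0.06), and of 28 without one 0 were lower (median -0.07), beside 3.94% of all genes called lower. Of the members, 2 were not classed. The difference between these counts was not tested.

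Short genes had lower log2 fold changes than long ones in these libraries. When all genes tested were sorted by principal transcript length into 4 bins of like size, the median was -0.04 in the bin of shortest genes (66 to 1937 bases) and 0.02 in that of the longest. Of the 76 members 50 fall in the first bin, where their median was -0.08. In the bins of 1938 to 3003, 3004 to 4477 and at least 4478 bases the members' medians were -0.07, -0.05 and -0.06 (9, 12 and 5 members), against -0.02, -0.005 and 0.02 for all genes. The part of length in the members' values was not tested.

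Levels of the members were compared per kb of exon (1000 bases). On the scale of all annotated exon bases the highest was Mrpl34, at 90.3 CPM per kb in knockout and 104 in wildtype clones. It was followed by Mrpl36 (72.1 and 76.6 CPM per kb) and Mrpl44 (63.2 and 66.7). In the small subunit the highest were Mrps23 (57.3 CPM per kb in knockout and 59.6 in wildtype clones), Mrps28 (48.8 and 48.1) and Mrps15 (46.1 and 48.1). By the length of the principal transcript, an order added after the values were seen, Mrpl20 came first at 118 CPM per kb ± 6.95 in knockout and 126 ± 16.3 in wildtype clones, and Mrpl34 second. In the small subunit Mrps15 (83.2 and 87.0 CPM per kb), Mrps31 and Mrps18c then came first, and Mrps28 took rank 24 among all members. Mrpl13 moved from rank 60 to rank 8, so the order depends on the length used. The lowest were Mrpl48, Mrps36, Mrpl23 and Mrpl53 in both orders. Reads with several alignments are not in the counts, and annotated pseudogenes are named for Mrpl48, Mrps36 and Mrpl23. The part of such reads in these low levels was not tested.

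The member that failed the filter was Mrpl53, with 0 or 1 count in each clone (sums of 4 over knockout and 1 over wildtype clones). In each clone its count is below the floor of 3 counts, which is 0.109 to 0.158 CPM per clone and covers counting error only. Of its exon bases 88% are shared on the same strand with the gene model Gm42688, which had 103 to 167 counts in knockout and 118 to 168 in wildtype clones. HTSeq leaves out reads that touch several genes, so the count of Mrpl53 says little of its transcript. In all, 32 members share exon bases with another gene, 28 of them with a gene on the opposite strand. Mrpl33 matches the rule in the annotation but was not analysed here.

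Between clones, large and small subunit genes moved together. The mean log2 CPM over the 47 large subunit members was 5.51 to 5.68 in knockout clones (mean 5.60 ± 0.0646) and 5.58 to 5.84 in wildtype clones (5.66 ± 0.104). Over the 29 small subunit members it was 5.24 to 5.39 in knockout clones (5.31 ± 0.0625) and 5.27 to 5.48 in wildtype clones (5.36 ± 0.0889). The genotypes overlapped for both subunits. The large minus small difference was 0.291 ± 0.0242 in knockout and 0.300 ± 0.0360 in wildtype clones (SD, n = 6 each), so its mean differed between genotypes by -0.0095, less than the spread between clones. With the median over members in place of the mean the difference was 0.0147, also within that spread. Summed over all members, levels were 4113 CPM ± 179.8 in knockout and 4292 CPM ± 317.7 in wildtype clones.

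**Figure D3:**
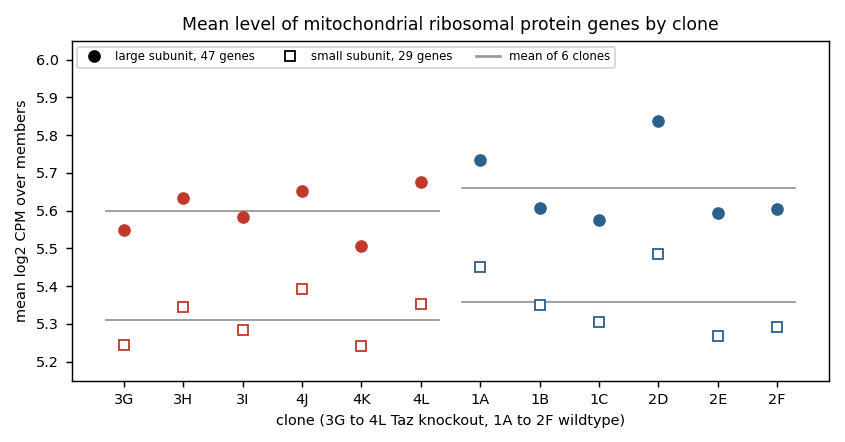
Mean log2 CPM over the 47 large (filled) and 29 small (open) subunit genes in each clone, Taz knockout clones on the left in red and wildtype clones on the right in blue, with lines at the mean of 6 clones. Clones 2D and 1A are the highest for both subunits and 4K the lowest, and the 2 subunits keep a like distance in every clone.

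The members' balance moved with a few clones. Clone 2D was the highest of all 12 for 48 of the 76 members and 1A for 16, while 4K was the lowest for 31 and 3G for 12. Without 2D, 45 of 76 members lay below 0, the median was -0.03 (large -0.03, small -0.02) and 3 were called lower, while 8.56% of all genes were called in that fit. Without 3G 55 lay below 0 and 2 were called (5.06% of all genes), and without 4K 53 and 2 (5.93%). Clone 2D also had the highest sum of 6 lymphoid markers, with 1.88 to 3.04 CPM in knockout and 5.34 to 62.8 CPM in wildtype clones, and of the neutrophil markers given above. Of the lymphoid sum in 2D Igll1 made up 45.1 CPM, while Cd79b was higher in 1A (18.2 CPM) than in 2D (16.5 CPM). Clone 3G had 141 CPM over 5 fetal hepatocyte markers and 6.09 CPM over 4 stromal markers, while the other clones had Alb in at most 13 counts against 2330 in 3G. The sum of 7 erythroid markers was 14.1 to 37.8 CPM in knockout and 15.6 to 85.1 CPM in wildtype clones, and that of 5 mast cell and basophil markers 2053 to 4754 and 1051 to 3989 CPM. For 5 megakaryocyte markers it was 151 to 295 CPM and 186 to 349 CPM. In the test on all clones, the called genes of these lists were all lower in knockout clones. With all clones 7 of 8 tested neutrophil markers lay below 0 (median -2.99), and without 2D 4 did (median 0.04). In the fit without 2D 1 neutrophil marker was called higher and 0 lower. Called lower in that fit were 1 erythroid, 3 lymphoid and 1 megakaryocyte marker. The pre-B cell genes Cd79b and Igll1 had log2 fold changes of -3.60 and -3.55 (adjusted p = 0.00737 and 0.0266). Without 2D the value of Igll1 was -1.87, and its call was lost without any single knockout clone (largest adjusted p 0.0634). The chemokine receptor gene Cxcr2, a neutrophil marker, was at -1.64 (adjusted p = 0.0411), a call lost in 10 of 12 fits, all but those without 2E or 4L. The integrin gene Itgb3, a megakaryocyte marker, was at -0.95 (adjusted p = 0.0256), a call lost without 1B, 1C, 2F, 3H, 4J or 4L. The part of these other cells' RNA in the members' values was not tested. In such bulk samples fewer cells of a type and less RNA per cell cannot be told apart.

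Clones were also compared by title number, 3 clones each. The 4 knockout-minus-wildtype pairs of numbers share libraries and are not independent. Members below 0 numbered 53 (3 minus 1), 61 (3 minus 2), 55 (4 minus 1) and 59 (4 minus 2) of 76, and the medians were -0.05, -0.09, -0.03 and -0.07. In these pairs edgeR called 0, 1, 0 and 0 members, against 1.57%, 0.719%, 0.508% and 0.262% of all genes called in either direction. At an unadjusted p under 0.05 there were 8, 8, 4 and 6 of 76 members, against 1945, 1689, 1490 and 1465 of 11819 genes. The called member was Mrpl34 in 3 minus 2 (log2 fold change -0.26, adjusted p = 0.0454). It stood at -0.19, -0.15 and -0.21 in 3 minus 1, 4 minus 1 and 4 minus 2. With the mean of the 2 wildtype numbers taken from that of the 2 knockout numbers, 3 of 76 members were called, all lower (5.91% of all genes in either direction). Within a genotype edgeR called 0 of 76 members and 0 of 11819 genes, both for knockout 4 minus 3 (0 members and 244 genes at an unadjusted p under 0.05) and for wildtype 2 minus 1 (3 members and 416 genes).

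Within each genotype, some members had a wide spread over clones. The spread within genotypes had a median of 0.118 on the log2 scale over the members and 0.15 over all genes. Mrpl48 (0.416), Mrps36 (0.409), Mrpl23 (0.279), Mrps31 (0.272), Mrpl19 (0.245) and Mrpl52 (0.185) were the most variable, and were chosen after their values were seen. Mrps36 and Mrpl23 are also the tested members with the lowest counts.

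Mrpl48, a protein specific to mitochondria, fell into a high and a low level. It had 19.3 CPM in 3G and 29.2 to 32.98 CPM in the other knockout clones. In wildtype clones it had 16.3, 15.4 and 14.8 CPM in 1A, 1C and 2F, and 28.1, 32.4 and 28.3 CPM in 1B, 2D and 2E. The low level was thus seen in clones of both genotypes and in 3 of the 4 title numbers. The pseudogene Mrpl48-ps had at most 12 counts in a knockout and 10 in a wildtype clone.

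Mrps31, a mitochondria-specific protein of the small subunit, ran from 87.9 CPM in 3H to 130 CPM in 3I among knockout clones (median 103) and from 81.6 CPM in 1A to 134 CPM in 2F among wildtype clones (median 110). Mrpl19, a counterpart of a bacterial protein, ran from 84.0 to 113 CPM in knockout clones (median 102) and from 80.0 to 130 CPM in wildtype clones (median 87.9). For Mrpl19 36% of exon bases are shared with Gcfc2 on the opposite strand. Mrpl52 ran from 31.0 to 34.9 CPM in knockout clones (median 33.5) and from 25.4 CPM in 2D to 41.8 CPM in 1A among wildtype clones (median 28.8). In these 3 genes the genotypes overlapped. Clone 2D, the highest for most members, was the lowest wildtype clone for Mrpl52 and the highest of all for Mrpl19.

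**Figure D4:**
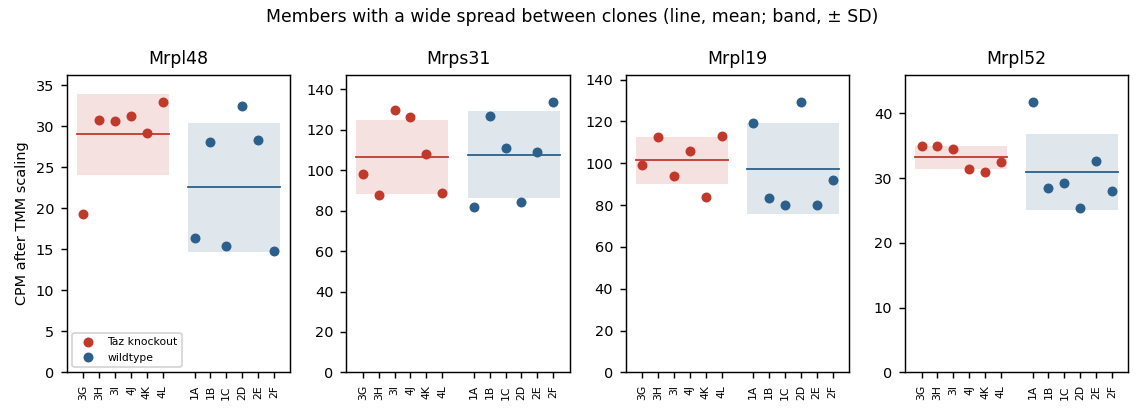
Level in CPM after TMM scaling of 4 members with a wide spread between clones, for each Taz knockout clone (red, left) and each wildtype clone (blue, right); the line is the mean and the band its SD over 6 clones. Mrpl48 shows a low level in 3G, 1A, 1C and 2F, and the genotypes overlap in all 4 panels.

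The promoters of the members were searched for letters that factors of mitochondrial gene expression are known to bind: GABP and other ETS factors (CCGGAAG), YY1 (AAGATGGC), NRF1 (its palindromic consensus), the E-box bound by MYC and USF (CACGTG), and the C/EBP-ATF element bound by ATF4 (TGATGNAA). Windows of 250 bases before to 50 after the start (RefSeq, GRCm38.p6) were found for 68 members and searched on both strands, and no member's window held overlapping matches of different motifs. The letters of GABP were in 24 windows (35.3%), against 20.4% of 8689 windows of genes tested and 12.9% of 15572 windows of all protein-coding genes. Those of YY1 were in 12 (17.6%, against 5.25% and 3.44%), and those of NRF1 in 3 (4.41%, against 2.3% and 1.45%). The E-box was in 5 (7.35%, against 10.3% and 8.38%) and the ATF4 letters in 0 (against 2.2% and 3.14%). A match is a description of the letters only, and these shares were not tested.

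The windows of cytosolic ribosomal protein genes held the GABP letters in 39% and the YY1 letters in 8.47% of 59, and those of complex I genes in 12.5% and 21.9% of 32. Members with and without the GABP letters had median log2 fold changes of -0.06 (23 tested) and -0.08 (44 tested). With and without the YY1 letters they were -0.11 (12 tested) and -0.06 (55 tested). Of the 5 members that fell, Mrpl27, Mrpl34 and Mrps21 had the GABP letters and Mrpl11 and Mrpl28 had none of the 5 motifs.

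Shown are the 250 bases before the start of 4 of the members that fell, Mrpl34 and Mrpl27 with the GABP letters, Mrps21, whose match lies past the start and so outside the stretch, and Mrpl28 without a match. Capitals mark the GABP letters. Stretches run 5′ to 3′ along the gene's strand, and coordinates are those of GRCm38.p6.
Mrpl34, chr8:71464676-71464925, plus strand: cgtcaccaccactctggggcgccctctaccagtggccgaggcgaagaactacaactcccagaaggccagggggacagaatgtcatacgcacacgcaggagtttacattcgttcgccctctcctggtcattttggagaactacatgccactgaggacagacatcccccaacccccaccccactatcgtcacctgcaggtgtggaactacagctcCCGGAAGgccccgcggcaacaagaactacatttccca
Mrpl27, chr11:94653541-94653790, plus strand: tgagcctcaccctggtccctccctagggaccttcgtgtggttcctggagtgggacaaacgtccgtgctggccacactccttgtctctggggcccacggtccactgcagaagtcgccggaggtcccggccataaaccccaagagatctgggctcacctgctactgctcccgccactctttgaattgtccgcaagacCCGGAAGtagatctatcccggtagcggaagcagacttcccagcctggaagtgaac
Mrpl28, chr17:26123253-26123502, plus strand: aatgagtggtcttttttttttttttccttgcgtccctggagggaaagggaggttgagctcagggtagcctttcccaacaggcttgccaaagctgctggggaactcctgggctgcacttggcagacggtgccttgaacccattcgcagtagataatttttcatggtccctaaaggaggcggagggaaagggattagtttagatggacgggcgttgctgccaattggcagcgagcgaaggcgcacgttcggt
Mrps21, chr3:95871515-95871764, minus strand: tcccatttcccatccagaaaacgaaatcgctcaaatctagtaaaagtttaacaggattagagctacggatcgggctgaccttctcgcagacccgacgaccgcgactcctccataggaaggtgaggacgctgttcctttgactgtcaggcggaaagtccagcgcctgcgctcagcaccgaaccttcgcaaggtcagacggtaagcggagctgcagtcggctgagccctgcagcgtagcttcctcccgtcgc
The GABP letters begin 37 bases before the start in Mrpl34 and 55 bases before it in Mrpl27.

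Many members share a promoter region with a neighbour. For 33 of 77 members (42.9%) the start of another protein-coding gene lay head to head within 1000 bases, against 1920 of 10823 protein-coding genes tested (17.7%). Distances are between annotated starts, and pairs whose 5′ ends overlap were counted too. In a single pair both genes were members, Mrpl46 and Mrps11, whose starts lie 412 bases apart and which had log2 fold changes of -0.16 and -0.10. Some partners are mitochondrial too, as the complex I gene Ndufs6 next to Mrpl36 (29 bases), the seryl-tRNA synthetase gene Sars2 next to Mrps12 (172 bases) and the helicase gene Twnk next to Mrpl43 (779 bases). Mrpl36 shares 30 exon bases with Ndufs6, and Mrpl43 shares 507 with Twnk. The start of Mrpl27, which fell, lies 197 bases from that of Eme1, with which it shares 75 exon bases. Eme1, an endonuclease subunit gene, was lower as well (-0.31, adjusted p = 0.0491). Its call was lost in 10 of 12 fits without a single clone, all but those without 1C or 2E. The start of Mrpl13, at 0.01, lies 340 bases from that of Mtbp, with which it shares 330 exon bases. Mtbp was higher (0.38, adjusted p = 0.0386). The call of Mtbp was lost in 10 of 12 fits, all but those without 2D or 4K. The members lie on many chromosomes, with 11 on chromosome 11, 8 on chromosome 17 and 7 on chromosome 6.

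Among the partners of the mitochondrial ribosome, single genes passed the test in either direction. Of all genes tested 3.99% were called higher and 3.94% lower. The 5 mitoribosomal proteins that carry other symbols, Dap3, Ptcd3, Aurkaip1, Chchd1 and Gadd45gip1, all had negative log2 fold changes (median -0.07), and edgeR and DESeq2 called 0 of them (1 at an unadjusted p under 0.05). Without 2D the median was -0.03 and 4 of 5 lay below 0, and without 4K the median was -0.04. The largest was that of the GTP-binding protein gene Dap3, at 123 CPM ± 8.19 in knockout and 136 CPM ± 11.5 in wildtype clones (-0.14, adjusted p = 0.194). Of 29 genes of mitoribosome assembly and rRNA modification 1 was higher and 0 lower (median 0.004). This was Mterf3, which acts in assembly of the large subunit, at 28.7 CPM ± 1.124 and 25.1 CPM ± 1.495 (0.19, SE 0.0495, adjusted p = 0.0343). Its call was lost in 9 of 12 fits, those without 1A, 1B, 1C, 2E, 2F, 3G, 3H, 3I or 4K. Without 2D 2 genes of that list were higher, in a fit that called 8.56% of all genes. Of 14 translation factors edgeR, DESeq2 and limma voom called 0 (1 at an unadjusted p under 0.05, median -0.01, and 0.01 without 2D). The elongation factor gene Tufm stood at 18.7 CPM ± 1.14 and 21.7 CPM ± 2.22 in knockout and wildtype clones (-0.21, SE 0.0725, adjusted p = 0.0995). Of 16 genes of mRNA stability and maturation the same 3 tools called 0 (1 at an unadjusted p under 0.05, median -0.06, and -0.02 without 2D).

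Of 14 tested regulators of mitochondrial transcription and biogenesis 2 rose and 1 fell (median 0.01), beside 3.99% of all genes called higher and 3.94% called lower. Without 2D 3 rose (median 0.03), and without 3G or 4K 1 rose. Without 2D, 3G and 4K 8.56%, 5.06% and 5.93% of all genes were called. Gabpb1, the subunit that gives GABP its activation domain, had 97.6 CPM ± 5.63 in knockout and 83.4 CPM ± 4.19 in wildtype clones (log2 fold change 0.23, SE 0.0454, adjusted p = 0.0124). Its DNA-binding partner Gabpa did not pass the test, at 125 CPM ± 5.36 and 135 CPM ± 5.26 (-0.11, adjusted p = 0.0915). Pprc1, a coactivator related to PGC-1, had 147 CPM ± 4.26 and 131 CPM ± 9.77 (0.17, SE 0.0467, adjusted p = 0.0475), a call lost in 10 of 12 fits, all but those without 1A or 2D. Mterf2, a member of the mitochondrial termination factor family, had 7.30 CPM ± 0.602 and 9.48 CPM ± 0.719 (-0.38, SE 0.0829, adjusted p = 0.0179). The calls of Gabpb1 and Mterf2 held in each of the 12 fits without a single clone (adjusted p of at most 0.03 and 0.0448). Myc stood at 441 CPM ± 25.7 and 455 CPM ± 60.1 in knockout and wildtype clones (adjusted p = 0.782).

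The mitochondrial ribosomal proteins are made by the cytosolic ribosome. Genes for its own proteins were higher in knockout clones where they passed edgeR's test on all clones. Of 76 tested cytosolic ribosomal protein genes 25 were higher and 0 lower by edgeR, with a median log2 fold change of 0.11 and 17 below 0. DESeq2, which called 13.7% of all genes, called 32 higher and 1 lower. Of the 76 genes 20 had knockout clones wholly above the wildtype clones, against 2.54% of all genes. The mean log2 CPM was 5.81 ± 0.0293 in knockout and 5.74 ± 0.0418 in wildtype clones (SD, n = 6 each). The count of higher genes was 16 without 1A or 1B, in fits that called 5.47% and 5.11% of all genes. It was 1 when counts were summed by title number, a fit that also called fewer of all genes than the test above. Many cytosolic ribosomal protein genes have near-identical pseudogenes, and reads with several alignments, 43.4 to 44.9% of records in knockout and 42.8 to 43.8% in wildtype clones, are not in the counts. Of 36 tested complex I genes, whose products assemble with mitochondrially made subunits, 0 were higher and 2 lower (median -0.06, 30 below 0). Those 2 were Ndufb3 (-0.22, adjusted p = 0.0277) and Ndufv3 (-0.38, adjusted p = 0.0231). Without 2D 2 were lower, the median was -0.03 and 23 lay below 0. Without 3G 0 complex I genes were lower, and without 4K 1. Beside these sets 3.99% of all genes were called higher and 3.94% lower on all clones. In the fits without 2D, 3G and 4K 8.56%, 5.06% and 5.93% of all genes were called. The differences between the sets were not tested.

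**Figure D5:**
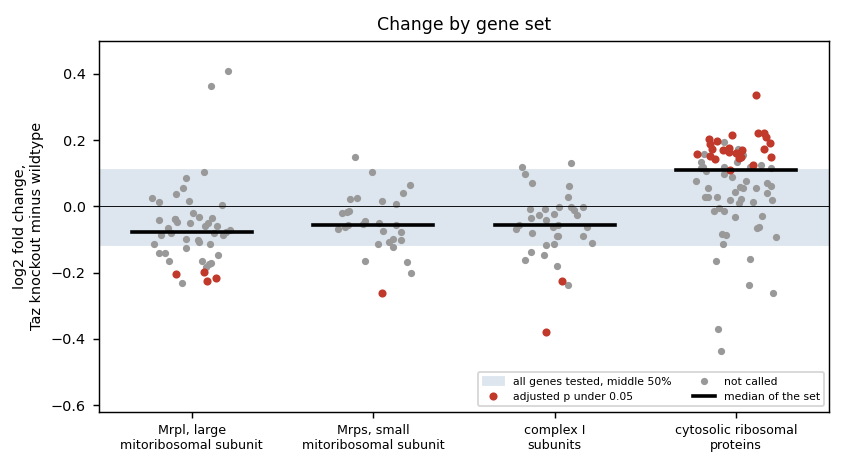
Log2 fold change (Taz knockout minus wildtype) of each tested gene of the large and small mitochondrial ribosomal subunits, complex I and the cytosolic ribosome; red points passed the test, black bars are set medians and the blue band holds the middle 50% of all genes. The medians are -0.08, -0.06, -0.06 and 0.11 in that order.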

How the data were processed

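RNA of 12 ER-Hoxb8 clones was sequenced, and the deposited tables, 1 per clone, hold unnormalized read counts for each Ensembl gene. The authors' tools were STAR, HTSeq and edgeR, on genome build mm9, per the submitters' processing notes. The names of the deposited tables say that reads were counted without strand. Versions and the annotation release are not given in the sources used here. The last 5 lines of each table name no gene and were left out; reads with several alignments made up 42.8 to 44.9% of records, reads outside genes 3.06 to 3.93% and ambiguous reads 1.53 to 1.65%. Symbols came from GENCODE M21, a later build used for names, lengths and neighbours only (32860 of 37583 identifiers matched), and promoters from RefSeq GRCm38.p6.

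The test was edgeR 4.0.16's quasi-likelihood test (R 4.3.3) on all 12 clones with TMM scaling, filterByExpr and Benjamini-Hochberg adjustment over 11819 genes. SE is the absolute log2 fold change over the square root of F. Log2 CPM of clones used a prior count of 2. The fits were run on simulated data with known changes, all larger than those of the called members and with unrelated clones. Changes as small as those of the members were not simulated. Alternatives were RLE, upper quartile and no scaling, other filters, DESeq2 1.42.0, limma 3.58.1 voom with and without a title-number block, counts summed by title number, a model of 4 title numbers and leaving out each clone. Whether clones came from separate animals is not stated, so p-values measure the spread between these clones. Counting floors cover counting error only.

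Named genes were Taz, the called members, the 4 largest and 4 smallest log2 fold changes and the 3 highest and 2 lowest levels per kb of each subunit, members failing the filter, members called under an alternative only, members with special roles, and called genes of the other lists; 1 list is not reported here. Other genes named were chosen after their values were seen. The members and lists were chosen with earlier results of these data known. Depth was 18970252 to 27431544 counts in genes per clone.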

Additional observations from a re-analysis of the deposited data

Results flagged for a closer look

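In 8 of 152 groups of 6 clones (76 members in 2 genotypes) the highest or lowest clone stood apart from the rest, its gap to the nearest clone taking up most of the group's range (Dixon's test at the 95% level). Chance flags about 1 in 20 groups. Of these groups 5 were of knockout and 3 of wildtype clones. Among knockout clones, Mrpl48 was at 19.2 CPM in 3G (others 29.2 to 32.98 CPM), Mrpl21 at 47.3 CPM in 4K (54.2 to 57.4 CPM) and Mrpl35 at 44.4 CPM in 4K (48.7 to 51.2 CPM). Mrpl16 was at 55.2 CPM in 3I (58.8 to 59.9 CPM), and Mrpl36 was high, at 94.0 CPM in 4J (79.3 to 83.0 CPM). All 3 flags among wildtype clones were high values of 2D. Mrpl2 stood there at 82.3 CPM (others 60.2 to 68.2 CPM), Mrpl12 at 114 CPM (74.7 to 86.7 CPM) and Mrps5 at 69.1 CPM (47.7 to 55.7 CPM).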

How the results depend on the processing

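Over 24 alternatives the number of members called ran between 0 and 11, and 0 members were called higher in any. With no filter on low counts 2 members and 551 genes were called, in place of 5 and 938. DESeq2 called 6 members and 1613 genes. Limma voom blocked by title number called 11 members and 2296 genes; the correlation estimated for the block was -0.169. With counts summed by title number 0 members and 274 genes were called by edgeR, and with 4 title-number groups 3 members and 698 genes. Without single clones, between 2 and 6 members and between 570 and 1031 genes were called; the lowest were 2 members without 2F, 3G or 4K and 570 genes without 3I, 602 without 3G and 608 without 1B. The median log2 fold change ran between -0.10 and -0.03 for the large and between -0.08 and -0.02 for the small subunit, nearest to 0 without 2D. Scaling by RLE, upper quartile or library size left the members' median between -0.0668 and -0.0599, and leaving the cytosolic ribosomal proteins out before scaling, added after seeing the data, left it at -0.067. Of 735 values of named members 6 turned sign, all of uncalled genes: Mrps10 ran between -0.0578 and 0.0711 without single clones (0.0711, 0.00226 and 0.00774 without 2D, 3G and 4K), and Mrpl58 between -0.0724 and 0.00871 (0.00871, 0.00587 and 0.00274 without the same clones). The cause of these changes was not tested. The lowest counts, where counting error is widest, were those of Mrpl53, Mrpl23 and Mrps36. No paired analysis was possible because the genotypes share no title number.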
